A study of Mus musculus with 35 samples.

Results

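Bone marrow-derived macrophages labelled AMPKα1−/− were compared after 24 h with LPS (lipopolysaccharide, 100 ng/ml) and after 24 h with vehicle (DMSO). All libraries with that genotype label and 1 of these treatments were taken, 3 with LPS and 3 with vehicle, which makes 6 of the 35 libraries of the series. The fit behind the p-values also held the libraries of this label given dexamethasone (Dex, 100 nM) or LPS with Dex for 24 h, and the series further has DAMPs (1 µg/ml) with and without Dex. Genes were described where their mean over the 6 libraries reached 1 FPKM, which held for 11244 of 47069 gene identifiers. FPKM counts the fragments on a gene per kilobase of its length, relative to all fragments of that library. The mice are labelled C57BL/6, and their marrow was differentiated over 5 to 7 days in 20% FBS and 30% L929 conditioned medium before treatment. Wild-type macrophages of the same strain label, grown and treated alike, served for 1 comparison of responses, with 3 vehicle libraries and 2 LPS libraries (replicates 2 and 3). The study states that its N values are cultures from individual mice, but the labels do not tie a library to a mouse, and how much of the gene the AMPKα1−/− allele removes is not given in the sources used here.

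LPS, a glycolipid of the outer membrane of Gram-negative bacteria, is carried by LBP and CD14 to a complex of TLR4 and MD-2 on macrophages. The adaptor MyD88 then leads to NF-kB and MAP kinases and so to inflammatory cytokines, while the adaptor TRIF leads to IRF3, interferon beta and, through STAT factors, to interferon-stimulated genes. AMPK, a kinase activated when AMP rises against ATP, restrains biosynthesis and favours oxidative metabolism, and its α1 catalytic subunit, encoded by Prkaa1, is the main one of macrophages.

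Promoter sequences from RefSeq (GRCm38.p6) are shown for the genes among the 12 largest rises that held a kB-type or an interferon response-type motif, since these are the sequence types that NF-kB and the interferon factors are known to bind. The window runs from 250 bases before to 50 bases after the start of the gene, and capitals mark the motif. Cxcl3 and Il6 hold the kB type (GGG and TTTCC with any 2 bases between them, on either strand) and Saa3 holds the interferon response type (GAAA and GAAA with any 2 bases between them, on either strand).
Cxcl3, chr5:90785851-90786150, plus strand: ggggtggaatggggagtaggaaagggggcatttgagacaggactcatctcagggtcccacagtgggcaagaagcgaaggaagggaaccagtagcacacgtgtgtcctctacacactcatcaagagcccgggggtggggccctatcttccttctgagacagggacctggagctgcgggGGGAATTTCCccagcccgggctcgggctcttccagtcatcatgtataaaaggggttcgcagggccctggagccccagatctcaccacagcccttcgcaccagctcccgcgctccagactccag
Il6, chr5:30012864-30013163, plus strand: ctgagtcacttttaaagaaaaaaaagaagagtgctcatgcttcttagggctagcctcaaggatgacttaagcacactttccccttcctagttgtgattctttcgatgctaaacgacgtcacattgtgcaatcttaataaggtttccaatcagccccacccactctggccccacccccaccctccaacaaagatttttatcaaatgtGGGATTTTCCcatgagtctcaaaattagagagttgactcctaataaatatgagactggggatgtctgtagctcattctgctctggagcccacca
Saa3, chr7:46715627-46715926, minus strand: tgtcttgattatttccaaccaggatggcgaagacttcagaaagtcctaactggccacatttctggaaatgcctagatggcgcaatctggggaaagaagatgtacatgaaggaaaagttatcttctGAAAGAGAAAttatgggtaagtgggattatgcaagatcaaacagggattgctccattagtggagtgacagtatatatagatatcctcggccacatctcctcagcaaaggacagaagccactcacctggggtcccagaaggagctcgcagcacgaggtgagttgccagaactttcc

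In these windows the kB-type motif began 73 bases before the start of Cxcl3 and 44 bases before that of Il6, and the interferon response-type motif began 125 bases before the start of Saa3. A promoter was in the table for 8577 of the genes tested. The kB type was in 1.57% of all these promoters and in 5.58% (11 of 197) of those of genes that rose by at least 3 on the log2 scale. The interferon response type was in 3.37% of all and in 17.8% (35 of 197) of those large rises, and in 5.19% (7 of 135) of the promoters of genes that fell by at least 3. The other motifs searched on both strands were also more frequent in the 197 promoters of large rises: the AP-1 type TGANTCA was in 17.3% (4.79% of all), the GAS type TTCNNNGAA in 12.7% (6.88% of all) and TATAAA in 17.8% (6.60% of all). In the 135 promoters of large falls these were in 8.15%, 6.67% and 14.1%, and the kB type in 1.48%. Among the lists described further on, the interferon response type was in 15 of 23 promoters of antiviral genes (65.2%) and in 8 of 9 of interferon-inducible GTPases (88.9%), and the kB type in 3 of 6 of CXC chemokines, 1 of 6 of CC chemokines and 2 of 14 of inflammatory cytokines. The other 9 of the 12 largest rises held neither motif in this window. A match is only a run of letters, and binding was not measured.

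Prkaa1 (ENSMUSG00000050697, chr15:5143861-5181899), the gene named in the genotype label, was read at 14.8, 16.5 and 15.4 FPKM in the vehicle libraries labelled AMPKα1−/− and at 9.05, 11.2 and 10.5 FPKM in the LPS libraries. Wild-type libraries had 15.9, 11.8 and 15.3 FPKM with vehicle and 15.3 and 10.4 FPKM with LPS. The ranges of the genotypes overlapped, and the vehicle difference was 0.12 on the log2 scale (SE 0.23, adjusted p = 1.0 from limma). A value per gene does not show which exons were covered, so it does not check the label, and the libraries are called by their label here.

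Library totals were estimated from the value that makes most low FPKM values whole numbers of fragments, which left 57.0% to 60.7% of them whole to within 0.001 fragments. These estimates were 21982580, 16903213 and 19887945 fragments for LPS and 23454927, 18314204 and 21069029 for vehicle. By them 1 fragment per kb of gene corresponded to 0.0426 to 0.0592 FPKM. Between replicates of 1 group, log2(FPKM + 1) correlated across genes with Pearson's r of 0.977 to 0.990 for LPS and 0.983 to 0.990 for vehicle. The libraries numbered 3 stood apart from those numbered 1 and 2. In both treatments, 26 genes lay at least 1 log2 unit to the same side of both other replicates in replicate 3, against 5 in replicate 1 and 4 in replicate 2. Of these 26, 12 lay between 33905135 and 36121465 on chromosome 17, the region of the H2 (major histocompatibility) genes. These bounds are those of the outlying genes themselves, and 106 of the 11244 tested genes start in or beside them.

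H2-D1, a classical class I heavy chain, had 1086, 934 and 4788 FPKM with vehicle and 1208, 1170 and 6294 FPKM with LPS. H2-Ab1, a class II beta chain, had 127, 143 and 1891 FPKM with vehicle and 196, 226 and 1309 FPKM with LPS. H2-Ea-ps, a class II pseudogene of the reference strain, ran the other way, with 414, 503 and 0 FPKM with vehicle and 43.0, 34.2 and 0 FPKM with LPS. In each of these genes replicate 3 was the outlying library in both treatments. Over all 6 treatments of this genotype label, the median of H2-D1 was 1147 and 1065 FPKM in the libraries numbered 1 and 2 and 4319 FPKM in those numbered 3, with ranges of 637 to 2681, 595 to 1406 and 2454 to 6294 FPKM. H2-Ea-ps did not follow the number in every treatment: the libraries numbered 3 had a median of 0.0429 FPKM but reached 434 FPKM. The cause was not tested. Without all libraries numbered 3, an alternative chosen after seeing the data, 2244 genes were called higher and 4483 lower, against 2358 and 4976 with them.

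Of the 11244 genes, 7334 passed an adjusted p of 0.05 in limma. LPS raised 2358 genes (21.0% of those tested) and lowered 4976 (44.3%), and 3910 were not called. The counts given for gene lists stand against these shares of all genes. All 3 LPS libraries lay above all 3 vehicle libraries for 2614 genes (23.2%) and below them for 5478 (48.7%). By at least 1 on the log2 scale, 1090 genes rose and 2164 fell, and by at least 2, 498 rose and 615 fell. Above that rises outnumbered falls, with 268 against 192 by at least 3 and 88 against 19 by at least 5. Over all genes the log2 fold change had a median of −0.28. With every library centred on its median, 3480 genes were called higher and 3542 lower, so that the share of higher calls went from 32.2% to 49.6%, and 5900 of the calls kept their direction while 0 turned.

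The LPS libraries gave a larger part of their signal to few genes. Saa3, an acute-phase serum amyloid secreted by macrophages, held 5.51%, 7.58% and 3.74% of the FPKM sum with LPS and at most 0.0334% with vehicle. Fth1, the ferritin heavy chain, held a mean of 4.36% with LPS and 2.13% with vehicle. Lyz2, the lysozyme of macrophages, led the vehicle libraries with 3.41% and held 2.05% with LPS. Lyz2 itself had 29598, 24405 and 18800 FPKM with vehicle and 19951, 18106 and 10344 FPKM with LPS. Its groups overlapped and its log2 difference of −0.62 (SE 0.29) was not called (adjusted p = 0.080), though it was with the replicate number as a block (adjusted p = 0.013). Over the alternative settings given below, the difference ran from −1.68 to −0.33.

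The 12 largest rises included genes of cytokines, chemokines and enzymes. Which genes these were depended on the setting. Over the alternative settings given below, Ccl17, not among the 12, reached 10.28, and Saa3 at most 9.20. Il1b, the precursor of interleukin-1 beta, went from 13.0, 2.70 and 4.23 FPKM with vehicle to 15096, 13839 and 11233 FPKM with LPS. The log2 fold change was 11.003 (SE 0.42, adjusted p = 5.9e-10). Il1a, its sister cytokine, went from 1.27, 0.277 and 0.240 FPKM to 1777, 1734 and 1681 FPKM, a change of 10.14 (SE 0.22). The LPS libraries of both lay within narrow ranges, far above every vehicle library. Upp1, uridine phosphorylase of pyrimidine salvage, was as even, at 603, 629 and 678 FPKM with LPS against at most 0.561 FPKM with vehicle (8.90, SE 0.16). Lcn2, the siderophore-binding lipocalin, had 1964, 2046 and 1706 FPKM with LPS against 5.20, 2.06 and 1.38 FPKM with vehicle (9.06, SE 0.35). Acod1, which makes itaconate from cis-aconitate, had 1347, 1313 and 992 FPKM against 4.10, 1.83 and 0.887 FPKM (8.65, SE 0.29).

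Ptgs2, the inducible cyclooxygenase, had 821, 854 and 1632 FPKM with LPS and 0.904, 0.386 and 0.138 FPKM with vehicle (9.50, SE 0.26). Here replicate 3 was the highest LPS library and the lowest vehicle library. Ccl22, a ligand of CCR4, was also highest in LPS replicate 3, at 680, 865 and 2457 FPKM with LPS against 0.292, 0.0416 and 0.0361 FPKM (9.98, SE 0.45). Its vehicle values in replicates 2 and 3 were below those of 1 fragment per kb (0.0546 and 0.0475 FPKM), so these 2 cannot be ordered. Saa3 was lowest in replicate 3 among LPS libraries, at 44192, 59262 and 28580 FPKM against 241, 92.8 and 54.0 FPKM (8.61, SE 0.44). The remaining genes of the 12 largest rises were Cxcl3 (9.52), Il12b (8.50), Il6 (8.50) and Il12a (8.30), the last 3 encoding subunits of IL-12 and the acute-phase inducer IL-6.

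**Figure D1:**
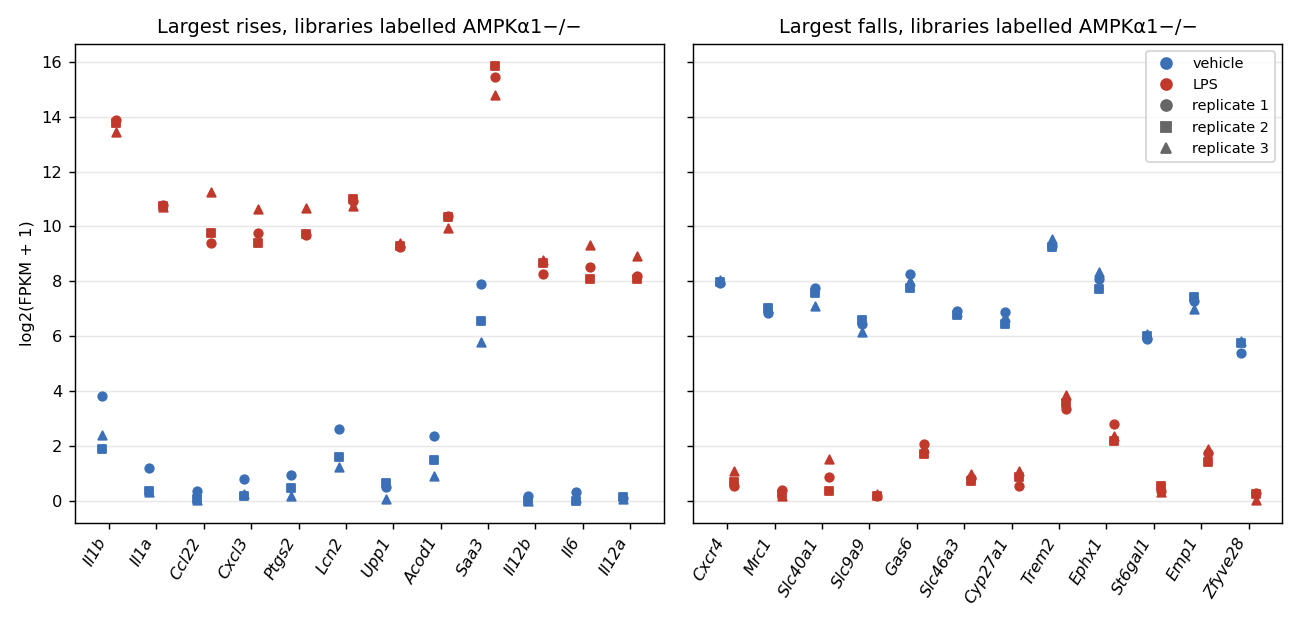
Expression of the 12 largest rises (left) and 12 largest falls (right) in the libraries labelled AMPKα1−/−, as log2(FPKM + 1) on the vertical axis, with 1 point per library. Blue points are the 3 vehicle and red points the 3 LPS libraries, and marker shapes give the replicate number. Only genes without overlapping groups were chosen. Il1b reached 15096 FPKM and Cxcr4 dropped from 242, 248 and 262 FPKM to at most 1.15 FPKM.

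The 12 largest falls included receptors, transporters, enzymes and a secreted ligand. Cxcr4, the receptor of CXCL12, which retains leukocytes in marrow, went from 242, 248 and 262 FPKM with vehicle to 0.470, 0.612 and 1.15 FPKM with LPS (−7.19, SE 0.14, adjusted p = 2.9e-12). Mrc1, the mannose receptor CD206, went from 114, 130 and 128 FPKM to 0.330, 0.191 and 0.135 FPKM (−6.68, SE 0.12). Both were within narrow ranges with vehicle and at most 1.15 FPKM with LPS. Slc40a1, the iron exporter ferroportin, went from 216, 188 and 138 FPKM to 0.843, 0.274 and 1.86 FPKM (−6.57, SE 0.29). Gas6, a ligand that bridges apoptotic cells to TAM receptors, went from 311, 217 and 257 FPKM to 3.21, 2.30 and 2.85 FPKM (−6.11, SE 0.19). Trem2, a lipid-sensing receptor, went from 620, 615 and 750 FPKM to 9.30, 10.9 and 13.6 FPKM (−5.76, SE 0.18). The others were Slc9a9, an endosomal sodium-proton exchanger (−6.20), Slc46a3, a lysosomal transporter (−6.01), Cyp27a1, sterol 27-hydroxylase (−5.83), Ephx1, microsomal epoxide hydrolase (−5.60), St6gal1, a sialyltransferase (−5.59), Emp1 (−5.56) and Zfyve28 (−5.45). These largest changes were chosen among genes whose LPS and vehicle libraries did not overlap.

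**Figure D2:**
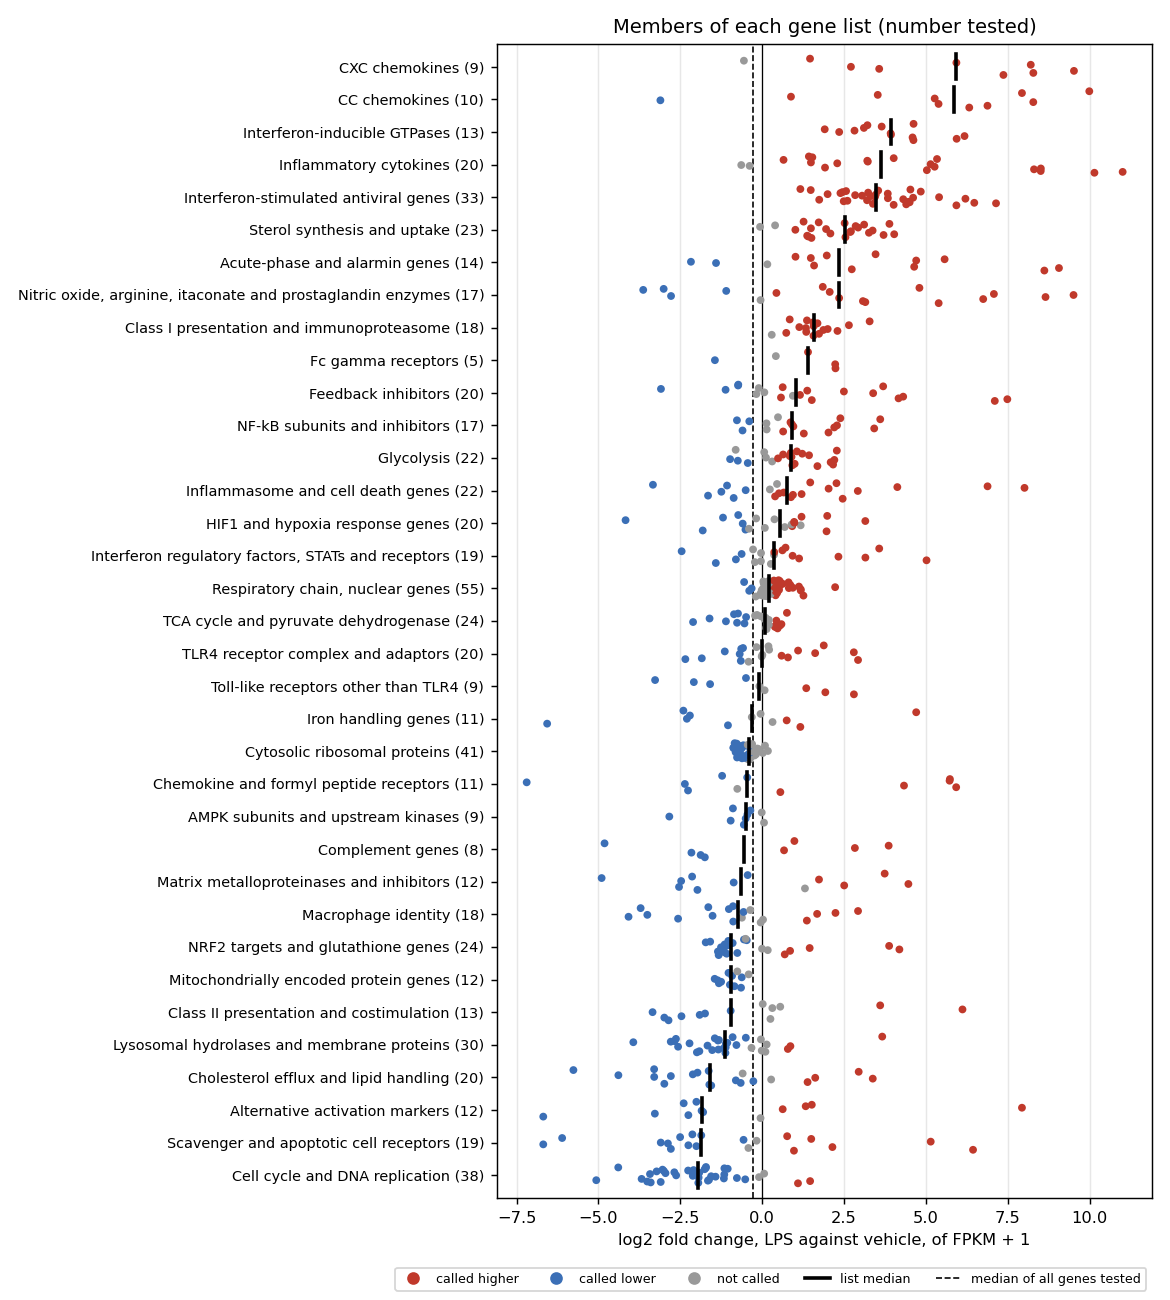
Log2 fold change of FPKM + 1, LPS against vehicle, for each tested member of 35 gene lists in the libraries labelled AMPKα1−/−, with the number tested in parentheses. Each point is a gene (red called higher, blue called lower, grey not called by limma), the black bar is the list median and the dashed line the median of all genes, −0.28. Chemokine lists sit at the top with medians of 5.93 and 5.85, and cell cycle genes at the bottom with −1.95.

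Of 20 tested genes of the TLR4 complex and its adaptors, 7 rose and 7 fell, against 21.0% and 44.3% of all genes, with a median log2 fold change of −0.01, which was 0.27 after centring. Tlr4, the signalling receptor, had 32.5, 43.9 and 31.7 FPKM with vehicle and 26.6, 33.1 and 21.0 FPKM with LPS, and these overlapped (−0.42, SE 0.23, adjusted p = 0.13). Its partner Ly96, which encodes MD-2, fell from 45.4, 44.0 and 46.6 FPKM to 30.2, 25.8 and 29.5 FPKM (−0.65, SE 0.12, adjusted p = 0.00046). That call was lost at the threshold after centring (−0.38, adjusted p = 0.050). Cd14, the co-receptor, rose from 399, 436 and 217 FPKM to 2840, 2379 and 2463 FPKM (2.92, SE 0.23). The adaptor Myd88 rose by 0.79 (SE 0.14), and Irak3, a kinase-like protein that dampens signalling, by 2.80 (SE 0.14). Cd180, a TLR4-like receptor that pairs with MD-1, fell by 2.35 (SE 0.20) on the log2 scale.

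Among 9 other Toll-like receptor genes 3 rose and 4 fell, against 21.0% and 44.3% of all genes. Tlr1 (2.80) and Tlr2 (1.93), cell-surface receptors for bacterial lipoproteins, rose. Tlr13 (−3.27) and Tlr9 (−2.09), endosomal receptors for bacterial ribosomal RNA and unmethylated DNA, fell. Tlr9 had 6.14, 5.70 and 4.37 FPKM with vehicle and 0.445, 0.680 and 0.376 FPKM with LPS, without overlap. The list median was −0.09 and turned to 0.19 after centring. It was −0.15 without vehicle replicate 3 and −0.035 without vehicle replicate 2.

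Of 17 NF-kB subunits and inhibitors, 11 rose and 3 fell (median 0.91), and 13 rose and 1 fell after centring. The inhibitors rose most: Tnfaip3, the deubiquitinase A20, went from 9.13, 8.96 and 9.40 FPKM to 97.4, 125 and 151 FPKM (3.60, SE 0.19), and Nfkbia, IkB alpha, from 55.4, 46.0 and 47.3 FPKM to 484, 573 and 562 FPKM (3.42, SE 0.11). Tnip1 (2.38), a partner of A20, and Nfkbiz (2.28), the nuclear IkB zeta, rose as well. Of the subunits, Nfkb2 (2.02), Nfkb1 (1.27) and Rel (0.64) rose. Rela fell by 0.60 (SE 0.16, adjusted p = 0.0051), but its groups overlapped, at 48.9, 38.9 and 52.6 FPKM with vehicle and 24.6, 28.5 and 39.4 FPKM with LPS, and centring took the call away (−0.33, adjusted p = 0.11).

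Other feedback inhibitors followed, 12 of 20 higher and 4 lower (median 1.04, and 0.65 without LPS replicate 3). Socs3 and Socs1, which shut down JAK kinases, were at 815, 991 and 1044 FPKM and at 171, 201 and 227 FPKM with LPS, from at most 5.80 and 0.716 FPKM with vehicle (7.48, SE 0.21, and 7.10, SE 0.17). Dusp2, a MAP kinase phosphatase, rose by 4.30 (SE 0.42) and Cish by 4.16 (SE 0.16). The 4 that fell were Cd200r1 (−3.09), the receptor of the inhibitory ligand CD200, Atf3 (−1.12), Trib3 (−0.74) and Rcan1 (−0.73).

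Inflammatory cytokine genes rose in 18 of 20 cases and fell in 0, with a median of 3.62 against −0.28 for all genes. With a pseudocount of 0.1 the list median was 5.50. Tnf went from 10.7, 9.93 and 13.8 FPKM to 336, 247 and 780 FPKM (5.03, SE 0.32). The antagonist Il1rn, which blocks the IL-1 receptor, rose from 15.7, 23.9 and 14.99 FPKM to 583, 723 and 688 FPKM (5.14, SE 0.27). Csf2 and Csf3, which encode GM-CSF and G-CSF, were listed at 0 in every vehicle library and had 23.3, 26.2 and 98.9 FPKM and 12.3, 11.7 and 24.0 FPKM with LPS. Replicate 3 was the highest LPS library for Tnf, Csf2 and Csf3. The 2 genes not called were Il10 and Il15. Il10, the anti-inflammatory cytokine, had 2.83, 5.21 and 2.32 FPKM with vehicle and 1.15, 2.89 and 1.497 FPKM with LPS, a log2 difference of −0.64 (adjusted p = 0.057), which was called with the replicate number as a block (adjusted p = 0.014). Il15 depended on replicate 3, with 7.82, 4.68 and 20.8 FPKM with LPS against 13.4, 13.3 and 10.8 FPKM (−0.38, adjusted p = 0.36), and was called lower without the libraries numbered 3 (−1.02, adjusted p = 0.0027).

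Of the chemokine genes, 9 of 10 CC members rose and 1 fell (median 5.85), and 8 of 9 CXC members rose (median 5.93). Ccl5, which attracts T cells and monocytes, went from 10.4, 15.1 and 5.22 FPKM to 2664, 2548 and 5011 FPKM (8.27, SE 0.47). Cxcl2, which attracts neutrophils through CXCR2, went from 4.40, 4.02 and 3.04 FPKM to 1274, 704 and 3625 FPKM (8.28, SE 0.42). Cxcl10, the interferon-induced ligand of CXCR3, went from 1.77, 1.09 and 0.189 FPKM to 536, 324 and 994 FPKM (8.20, SE 0.36). In these 3 genes replicate 3 was the lowest vehicle and the highest LPS library, and replicate 2 the lowest LPS library. Ccl3 (6.88, SE 0.50), Cxcl1 (7.36, SE 0.41) and Ccl17 (7.93, SE 0.32) rose too. The exception was Ccl6, a chemokine that resting macrophages express, at 75.9, 87.7 and 79.1 FPKM with vehicle and 7.34, 10.6 and 7.83 FPKM with LPS (−3.11, SE 0.18).

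Of 11 tested chemokine, formyl peptide and complement receptor genes 5 rose and 5 fell, against 21.0% and 44.3% of all genes. Fpr1 and Fpr2, receptors of bacterial formyl peptides, rose by 5.72 (SE 0.31) and 5.73 (SE 0.27). Ccr7, the receptor for lymph node homing, went from 0.0431, 0.0552 and 0 FPKM to 54.8, 47.8 and 88.9 FPKM (5.92, SE 0.19). Beside Cxcr4, the fallen genes were Cx3cr1 (−2.36), Ccr2 (−2.27), the receptors of fractalkine and of CCL2, and the complement receptors C3ar1 (−1.22) and C5ar1 (−0.46), the last not called after centring (−0.18, adjusted p = 0.20).

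Both lists of interferon targets were uniform in direction. All 33 interferon-stimulated antiviral genes rose, with a median of 3.47, and so did all 13 tested interferon-inducible GTPases, with a median of 3.92. Of all genes 21.0% were called higher. Isg15, a ubiquitin-like modifier, went from 18.4, 13.9 and 6.09 FPKM to 1737, 1268 and 2594 FPKM (7.14, SE 0.32). Ifit1, which binds foreign RNA caps, went from 4.93, 4.46 and 1.13 FPKM to 247, 166 and 373 FPKM (5.93, SE 0.37). Replicate 3 was again the lowest with vehicle and the highest with LPS in both. Isg20 (6.47, SE 0.36), an exonuclease, and Oasl1 (6.20, SE 0.43) had the next largest changes of the list, and Tor3a the smallest (1.16). Of the GTPases, Gbp5, which assembles on bacteria and aids inflammasomes, went from 1.82, 0.830 and 0.568 FPKM to 119, 113 and 223 FPKM (6.18, SE 0.26), and Gbp3 rose by 5.93 (SE 0.29). Members of the Oas1, Gbp and Tgtp families are close copies, so fragments could be split among them.

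Of the genes upstream of these targets, 9 of 19 rose and 4 fell, against 21.0% and 44.3% of all genes. Their median was 0.36, but −0.07, 0.43 and 0.63 by replicate number, 0.64 after centring, 0.15 without LPS replicate 3 and 0.18 without the libraries numbered 3. Irf7, the factor that amplifies interferon production, went from 91.5, 98.6 and 26.7 FPKM to 1930, 1732 and 2576 FPKM (5.02, SE 0.47). Jak2, a kinase of cytokine receptors, rose by 3.57 (SE 0.17). Ifngr1, the ligand-binding chain of the interferon gamma receptor, fell from 277, 278 and 269 FPKM to 43.6, 54.1 and 50.2 FPKM (−2.46, SE 0.11). Ifnb1, interferon beta itself, was listed at 0 in the vehicle libraries and at 0, 0.316 and 0.469 FPKM with LPS at 24 h, under the minimum for a test.

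Effector enzymes of activated macrophages changed in 16 of 17 cases, 12 higher and 4 lower (median 2.35). Nos2, the inducible nitric oxide synthase, rose from at most 0.0407 FPKM with vehicle to 32.2, 46.0 and 48.3 FPKM (5.39, SE 0.16). Slc7a2, an arginine transporter, rose from 1.96, 2.45 and 3.62 FPKM to 354, 440 and 370 FPKM (6.75, SE 0.15), and Ptges, the prostaglandin E synthase coupled to Ptgs2, from 3.8004, 2.78 and 2.38 FPKM to 508, 528 and 555 FPKM (7.07, SE 0.21). The LPS libraries agreed closely in these genes. The 4 that fell were Alox5 (−3.63) and Alox5ap (−3.01), enzyme and helper of leukotriene synthesis, Ptgs1 (−2.78), the constitutive cyclooxygenase, and Tbxas1 (−1.10), thromboxane synthase. Acute-phase and alarmin genes rose in 11 and fell in 2 of 14 cases (median 2.35, and 4.76 with a pseudocount of 0.1 or 4.64 among members of at least 5 FPKM), among them Slpi, a protease inhibitor (5.57, SE 0.53), and Cp, ceruloplasmin (4.70, SE 0.20). Saa1 and Serpina3g were listed at 0 in every vehicle library, with 4.06, 15.3 and 2.58 FPKM and 10.5, 9.90 and 9.59 FPKM with LPS. S100a6 (−2.18) and S100a4 (−1.41), calcium-binding proteins, fell.

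Cell death and inflammasome genes rose in 14 and fell in 6 of 22 cases (median 0.77). Nlrp3, the inflammasome sensor, rose from 14.1, 15.4 and 8.84 FPKM to 57.3, 74.3 and 90.8 FPKM (2.46, SE 0.21). The anti-apoptotic copies Bcl2a1a (8.01), Bcl2a1d (6.88) and Bcl2a1b (4.12) rose, with the caution that they are near-identical and share fragments. Bcl2l11, the pro-apoptotic protein BIM, fell from 45.3, 37.0 and 47.1 FPKM to 2.35, 2.25 and 6.52 FPKM (−3.34, SE 0.27). Of 8 complement genes 4 rose and 4 fell, against 21.0% and 44.3% of all genes. C3 (2.83) and Cfb (3.86), the components of the alternative pathway convertase, rose, and C1qc (−2.16) of the classical pathway fell.

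Of 18 class I and immunoproteasome genes 17 rose (median 1.57), and of 13 class II and costimulation genes 2 rose and 7 fell (median −0.96), which was 4 and 4 after centring. The class II shares lie near the 21.0% higher and 44.3% lower of all genes. Psme2, a proteasome activator subunit, rose from 268, 226 and 239 FPKM to 2630, 1994 and 2557 FPKM (3.28, SE 0.14), followed by the immunoproteasome subunit Psmb8 (2.65, SE 0.17), the peptide transporter Tap1 (2.30, SE 0.27) and the loading chaperone Tapbp (1.998, SE 0.23). The 1 class I gene not called was H2-D1, where replicate 3 alone set the spread (0.29, SE 0.83, adjusted p = 0.77). H2-K1 rose from 676, 622 and 1425 FPKM to 1735, 1667 and 5381 FPKM (1.57, SE 0.48, adjusted p = 0.012), and B2m, the shared light chain, by 1.34 (SE 0.19).

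Ciita, the master activator of class II genes, fell from 10.04, 10.1 and 14.2 FPKM to 0.208, 0.248 and 0.172 FPKM (−3.35, SE 0.15). Of the class II chains, H2-Aa fell from 303, 375 and 1177 FPKM to 31.3, 50.8 and 209 FPKM (−2.86, SE 0.98, adjusted p = 0.022). H2-Eb1 fell from 81.6, 128 and 688 FPKM to 9.03, 16.8 and 80.9 FPKM (−2.99, SE 1.10, adjusted p = 0.030). Each replicate fell on its own, but replicate 3 widened the spread, so that centring left H2-Eb1 at an adjusted p of 0.051, and it was not called without vehicle replicate 3 (−2.08, adjusted p = 0.13), LPS replicate 1 (−2.35, adjusted p = 0.11) or LPS replicate 2 (−2.76, adjusted p = 0.078) either. Without all libraries numbered 3 it was called (−2.95, adjusted p = 0.0019), as it was with the replicate number as a block (−2.99, adjusted p = 3.6e-07). H2-Ab1 did not pass (0.25, SE 1.38, adjusted p = 0.88), with LPS above vehicle in replicates 1 and 2 and below it in replicate 3. Cd40, the costimulatory receptor for T cell help, rose from 11.98, 11.3 and 8.36 FPKM to 588, 479 and 1748 FPKM (6.11, SE 0.40), and Icosl by 3.60 (SE 0.18). Because fragments of H2 genes can be lost or shared among alleles and copies, levels of single H2 genes are uncertain.

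**Figure D3:**
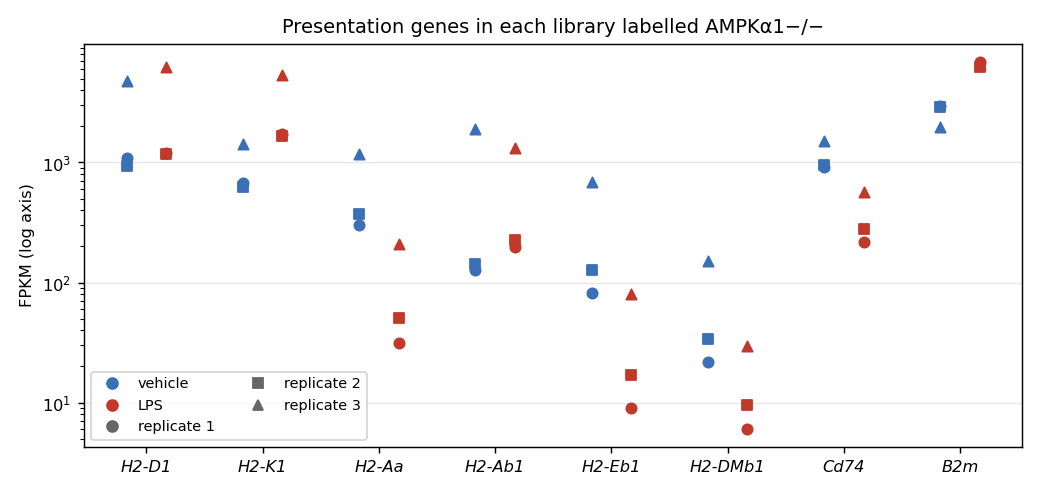
FPKM (log axis) of class I genes (H2-D1, H2-K1, B2m), class II genes (H2-Aa, H2-Ab1, H2-Eb1, H2-DMb1) and the invariant chain Cd74 in each library labelled AMPKα1−/−, blue for vehicle and red for LPS, with marker shapes for the replicate number. Replicate 3 (triangles) lies above both other replicates for every H2 gene shown in both treatments, as at 4788 against 1086 and 934 FPKM for H2-D1 with vehicle, and B2m does not share this.

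Glycolytic genes rose in 15 and fell in 3 of 22 cases (median 0.88). Taken by replicate number, the median of the list was 0.90, 1.11 and 0.31, lowest in replicate 3. Hk2, the inducible hexokinase, went from 10.95, 12.6 and 12.3 FPKM to 49.7, 78.8 and 46.8 FPKM (2.16, SE 0.21), and Pfkfb3, which makes the activator of phosphofructokinase, from 17.9, 14.6 and 19.2 FPKM to 71.9, 128 and 60.3 FPKM (2.201, SE 0.30). Pfkl, the liver-type phosphofructokinase, rose by 2.09 (SE 0.16) and the lactate exporter Slc16a3 by 2.28 (SE 0.33). In these genes LPS replicate 2 was the highest library. Pkm, pyruvate kinase, had 919, 1118 and 1322 FPKM with vehicle and 1180, 1366 and 954 FPKM with LPS and was not called (0.06, adjusted p = 0.79). The 3 that fell were Gpi1 (−0.44), Pfkm (−0.75) and Pfkfb4 (−0.98), of which Gpi1 and Pfkm lost the call after centring. Hif1a, which drives these enzymes under hypoxia, rose from 26.02, 31.6 and 24.0 FPKM to 132, 115 and 83.4 FPKM (1.96, SE 0.21). Of 20 hypoxia response genes 7 rose and 6 fell, against 21.0% and 44.3% of all genes, and 12 and 5 did so after centring. With the replicate number as a block 10 of these genes rose and 6 fell. Their median of 0.53 rested on replicates 1 and 2 (0.68 and 0.90, against −0.15 in replicate 3), was 0.25 without LPS replicate 2, 0.91 without the libraries numbered 3 and 0.081 among members of at least 5 FPKM. The members ran from Adm, adrenomedullin (3.15, SE 0.20), to Ndrg1 (−4.17, SE 0.39).

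Of 24 TCA cycle and pyruvate dehydrogenase genes 7 rose and 8 fell, against 21.0% and 44.3% of all genes. All rises were below 1 log2 unit. The list median was 0.09, and between 0.018 and 0.18 without single libraries. After centring 12 rose and 5 fell, with a median of 0.36. Idh2, the mitochondrial NADP isocitrate dehydrogenase, fell from 87.4, 90.7 and 79.4 FPKM to 44.6, 50.7 and 26.6 FPKM (−1.11, SE 0.18), Suclg2 by 1.61 (SE 0.20) on the log2 scale and Fh1, fumarase, by 0.86 (SE 0.13). Of 55 nuclear respiratory chain genes 24 rose and 3 fell. Their median was 0.21, and between 0.12 without LPS replicate 1 and 0.32 without LPS replicate 3. After centring 34 rose and 0 fell, with a median of 0.48. Cycs, cytochrome c, rose most, from 31.3, 34.2 and 33.0 FPKM to 170, 141 and 162 FPKM (2.23, SE 0.09), followed by the complex I subunits Ndufs4 (1.26), Ndufc2 (1.18) and Ndufb6 (1.17). Of 12 tested protein genes of the mitochondrial genome 10 fell and 0 rose (median −0.95), and 8 were called lower after centring. Mt-Cytb, cytochrome b, fell from 1608, 1648 and 1635 FPKM to 746, 587 and 482 FPKM (−1.45, SE 0.18). Mitochondrially encoded genes held 1.47%, 1.56% and 1.54% of the FPKM sum with vehicle and 1.21%, 0.977% and 0.798% with LPS, without overlap. The nuclear genome holds copies of these genes, so their fragments are uncertain.

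**Figure D4:**
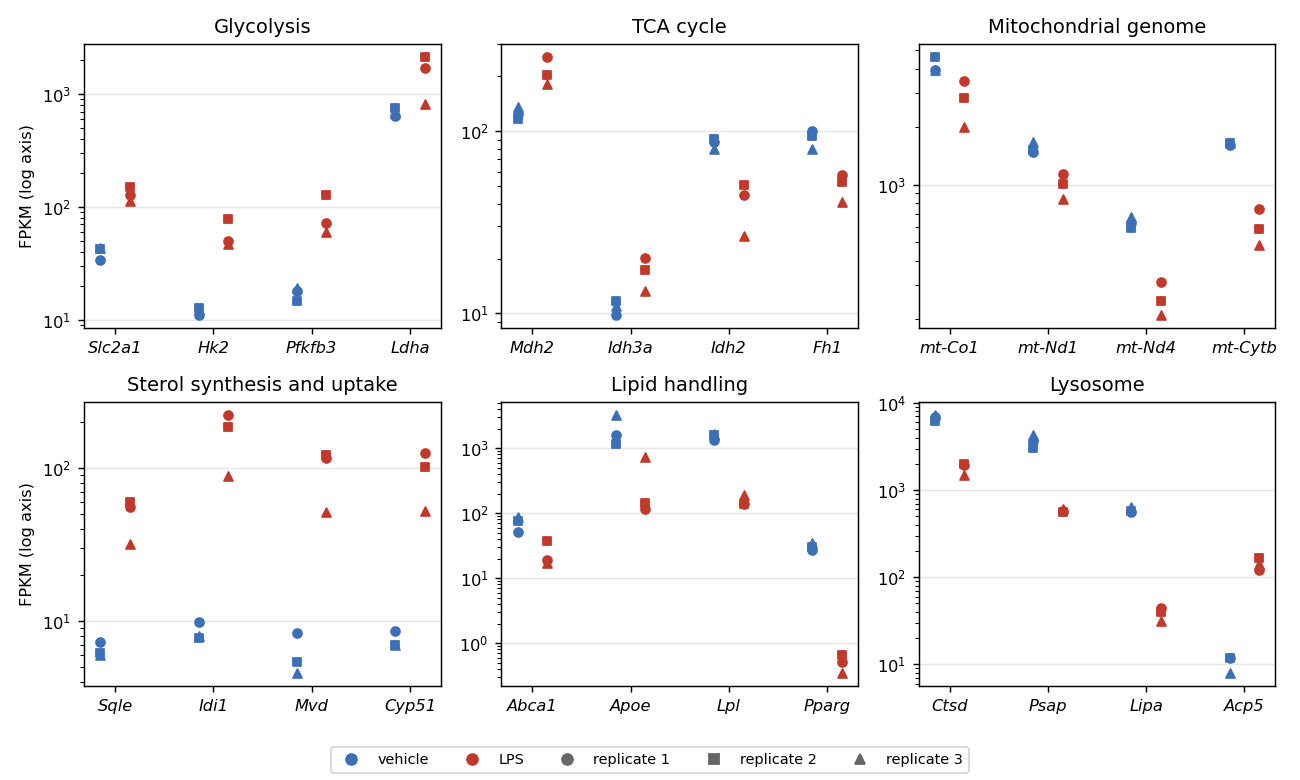
FPKM (log axis) of 4 genes each from 6 groups in the libraries labelled AMPKα1−/−, blue for vehicle and red for LPS, with 1 point per library and marker shapes for the replicate number. Sterol genes and glycolytic genes lie higher with LPS, mitochondrially encoded genes lower (Mt-Cytb 1608, 1648 and 1635 against 746, 587 and 482 FPKM), and the TCA cycle and lysosome panels hold genes of both directions.

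Sterol synthesis and uptake genes, the targets of SREBP2, rose in 21 of 23 cases and fell in 0 (median 2.52). Idi1, isopentenyl diphosphate isomerase, went from 9.93, 7.73 and 8.06 FPKM to 223, 187 and 88.5 FPKM (4.03, SE 0.31). Mvd (3.70, SE 0.28) and Cyp51 (3.37, SE 0.29), enzymes of the mevalonate and the later sterol steps, rose with it. The LPS library of replicate 3 was the lowest of the LPS libraries in these 3 genes and still above all vehicle libraries. Ebp and Dhcr7 were not called.

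Genes of cholesterol efflux and lipid handling went the other way, 4 higher and 14 lower of 20 (median −1.59). Of all genes 21.0% were called higher and 44.3% lower. Pparg, a lipid-activated nuclear receptor, fell from 26.7, 30.6 and 34.4 FPKM to 0.506, 0.658 and 0.344 FPKM (−4.39, SE 0.14). Gpnmb, a glycoprotein of lipid-laden macrophages, fell from 3742, 3653 and 3741 FPKM to 422, 406 and 310 FPKM (−3.30, SE 0.18). Abca1, the cholesterol exporter, fell from 50.6, 76.4 and 88.4 FPKM to 19.1, 37.1 and 17.3 FPKM (−1.56, SE 0.33), and Apoe from 1570, 1158 and 3262 FPKM to 114, 141 and 728 FPKM (−2.99, SE 0.73). The rises were Scd2 (3.37, SE 0.78), a fatty acid desaturase that ran from 2.69 to 71.1 FPKM among the LPS libraries, Ch25h (2.94), Fasn (1.62) and Nr1h3 (1.38).

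Lysosomal genes fell in 22 and rose in 3 of 30 cases (median −1.15), against 44.3% and 21.0% of all genes. Lipa, the acid lipase that frees cholesterol from lipoproteins, fell from 565, 576 and 645 FPKM to 43.7, 39.8 and 31.3 FPKM (−3.94, SE 0.12). Legumain, encoded by Lgmn (−2.79, SE 0.17), and the mannosidase Man2b1 (−2.68, SE 0.17) fell too. Acp5, the tartrate-resistant acid phosphatase, rose from 11.8, 11.7 and 7.91 FPKM to 122, 166 and 142 FPKM (3.66, SE 0.23), and Ctsz, a cathepsin, rose by 0.78. Of 11 iron handling genes 3 rose and 5 fell, shares near the 21.0% and 44.3% of all genes. Fth1 rose by 1.16 (SE 0.23) and Cp by 4.70. Ftl1, the ferritin light chain, fell from 19396, 17238 and 18499 FPKM to 11927, 6716 and 8766 FPKM (−1.05, SE 0.26, adjusted p = 0.0031). With no filter on low values neither ferritin gene was called (adjusted p = 0.12 for Fth1 and 0.066 for Ftl1), nor was Ftl1 after centring (−0.77, adjusted p = 0.059). After quantile normalization both were called, Ftl1 at −1.78 (adjusted p = 6.9e-07) and Fth1 at 0.75 (adjusted p = 0.021). Beside ferroportin the ferrireductase Steap3 (−2.41) and the transferrin receptor Tfrc (−2.30) fell. Genes of the NRF2 response and of glutathione fell in 16 and rose in 5 of 24 cases (median −0.95, and −0.61 without LPS replicate 2). After centring 10 fell and 6 rose. The shares of all genes were 44.3% lower and 21.0% higher before centring. Slc7a11, the cystine importer, rose from 1.73, 2.81 and 2.14 FPKM to 61.7, 36.7 and 82.6 FPKM (4.19, SE 0.33), and the peroxiredoxin Prdx5 by 3.87 (SE 0.17). Mgst1 (−1.73) and Cat, catalase (−1.59), fell.

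Scavenger and apoptotic cell receptors fell in 11 and rose in 6 of 19 cases (median −1.86), against 44.3% and 21.0% of all genes. Marco, a scavenger receptor for bacteria, rose from 44.3, 35.0 and 19.8 FPKM to 2828, 2672 and 2910 FPKM (6.44, SE 0.24), and Clec4e, the mycobacterial glycolipid receptor Mincle, from 64.9, 39.0 and 17.8 FPKM to 1673, 1050 and 1247 FPKM (5.14, SE 0.36). They stood against Mrc1 and Gas6, which had fallen to a few FPKM or less. Fc gamma receptor genes also diverged. Fcgr1 (2.24, SE 0.31) and Fcgr2b (2.23, SE 0.17), the high-affinity and the inhibitory receptor, rose, and Fcgr3 fell from 527, 468 and 462 FPKM to 187, 242 and 123 FPKM (−1.44, SE 0.18). Of 12 tested markers of alternative activation 7 fell and 4 rose (median −1.83), against 44.3% and 21.0% of all genes. Clec10a (−3.28) and Folr2 (−2.40) fell with Mrc1. Ccl17 was among the 4 that rose. Matrix protease genes fell in 7 and rose in 4 of 12 cases, against 44.3% and 21.0% of all genes, from Mmp14, a membrane collagenase (4.46, SE 0.16), to the inhibitor Timp2 (−4.90, SE 0.10).

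Cell cycle and DNA replication genes fell in 34 and rose in 2 of 38 cases (median −1.95). Ccnd1, cyclin D1, went from 45.8, 80.0 and 37.97 FPKM to 0.692, 0.871 and 0.239 FPKM (−5.07, SE 0.26). Stmn1, a microtubule regulator, went from 95.7, 119 and 90.0 FPKM to 3.25, 3.78 and 4.56 FPKM (−4.40, SE 0.16), and Cdc20 (−3.68) and Ccnb2 (−3.51), of mitotic exit and entry, fell with it. The 2 that rose were Ccne1, cyclin E1 (1.46), and Mki67, the proliferation marker Ki-67, at 6.97, 10.9 and 6.33 FPKM with vehicle and 16.3, 16.8 and 20.8 FPKM with LPS (1.09, SE 0.23). In bulk samples fewer cycling cells and less RNA per cell cannot be told apart. Cytosolic ribosomal protein genes were lower in 20 and higher in 0 of 41 cases (median −0.41), against 44.3% of all genes called lower and a median of −0.28. After centring 5 were called lower, and 25 with the replicate number as a block. Among those that fell was Rps9 (−0.87).

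Genes of AMPK and its upstream kinases were lower or not called: 7 of 9 fell and 0 rose (median −0.51). Of all genes 44.3% were called lower and 21.0% higher, with a median of −0.28. After centring 4 of the 9 were lower and 1 higher (median −0.23), against 3542 and 3480 of all 11244 genes. Prkag2, a regulatory gamma subunit, fell from 27.2, 24.6 and 29.3 FPKM to 2.61, 2.98 and 3.18 FPKM (−2.84, SE 0.14). Prkab2, a beta subunit, fell by 0.96 (SE 0.20) on the log2 scale and Cab39, a scaffold of the kinase LKB1, by 0.89 (SE 0.12). Prkaa1 itself was called lower with LPS (−0.56, SE 0.16, adjusted p = 0.0085), and the fall was smaller after centring (−0.29, adjusted p = 0.045) and after quantile normalization (−0.28, adjusted p = 0.0499). Prkaa2, the other catalytic subunit, was at or below 0.130 FPKM in all 6 libraries.

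Markers of macrophages were abundant in all 6 libraries. The 18 identity genes summed to 43096, 37242 and 32910 FPKM with vehicle and to 29214, 27169 and 18653 FPKM with LPS, with Lyz2 the most abundant, and 4 rose while 10 fell, against 21.0% and 44.3% of all genes. Spi1, which encodes the lineage factor PU.1, had 817, 725 and 821 FPKM with vehicle and 725, 690 and 880 FPKM with LPS (−0.05, SE 0.12, adjusted p = 0.75). Itgam, the integrin CD11b, was not called either (0.02, adjusted p = 0.93). Lgals3 (−3.71, SE 0.12) and Cebpa (−3.51, SE 0.18), a lectin and a transcription factor of myeloid cells, fell. Adgre1, the F4/80 antigen, rose from 706, 959 and 626 FPKM to 1900, 2213 and 1719 FPKM (1.36, SE 0.19).

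Markers of other cells were few. Of 15 neutrophil markers 5 were tested, their sum being 94.3, 88.5 and 91.3 FPKM with vehicle and 198, 209 and 228 FPKM with LPS. Csf3r was the most abundant, Camp rose by 5.67 and Mmp8 (−1.98) and Ltf (−1.65) fell, while Elane and Ly6g had at most 0.475 and 0.200 FPKM. The 14 T and NK cell markers summed to 11.9, 12.1 and 7.16 FPKM with vehicle and 1.62, 1.71 and 1.62 FPKM with LPS, nearly all of the vehicle sum being Cd4, and Cd3e was at most 0.0760 FPKM. The 9 B cell markers summed to 108, 86.7 and 98.6 FPKM and 56.8, 45.6 and 72.0 FPKM. Most of that was Blnk and Ighm, of which Ighm fell from 74.5, 61.2 and 60.9 FPKM to 1.94, 0.630 and 0.0945 FPKM (−5.25), while Cd79a stayed below 1 FPKM. The 12 dendritic cell markers rose in sum from 380, 366 and 434 FPKM to 3697, 3852 and 4605 FPKM, led by Bst2, which is also among the antiviral genes, with Fscn1 (7.44) and Ccr7 (5.92), but Flt3 and Zbtb46 had at most 0.0156 and 0.245 FPKM. The 12 fibroblast markers summed to at most 18.1 FPKM, and Lum, listed at 0 with vehicle, had 3.77, 5.36 and 3.85 FPKM with LPS. Mast cell and erythroid markers summed to at most 1.68 and 0.297 FPKM, and their part in the results was not tested.

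Whether the response differed from that of wild-type macrophages was tested as an interaction over 11360 genes. A single gene, 0.00880% of those tested, passed the adjusted threshold, and 506 genes (4.45%) had an unadjusted p under 0.05 in limma. The log2 fold changes of the genotypes correlated with a Pearson's r of 0.970 across these genes, which are not independent replicates. The median was −0.28 for the label AMPKα1−/− and −0.18 for wild-type, and 7282 and 6318 genes were called. Of these, 5781 were called in the same direction in both, which is 79.4% of the first list and 91.5% of the latter, and 2 in opposite directions. The median absolute difference was 0.19 log2 units, with a median SE of 0.25, so that differences of the size of this SE were not resolved. Much larger differences also went uncalled: 150 genes differed by at least 1 log2 unit, and only 1 gene was called. The single call therefore cannot show that the responses were alike. All 24 genes of the largest rises and falls had the same sign in wild-type, and their differences ran from −0.88 (Il12b) to 1.40 (Lcn2, unadjusted p = 0.048), none passing the adjusted threshold (smallest adjusted p = 0.93).

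The gene that passed was Dkk2 (chr3:132085292-132180304), a secreted modulator of Wnt signalling and a weakly expressed gene. Its mean over the 6 libraries labelled AMPKα1−/− was under 1 FPKM, so Dkk2 entered the comparison only through its wild-type vehicle values. It had 1.16, 0.825 and 1.24 FPKM with vehicle and 0.0123, 0.0160 and 0.0407 FPKM with LPS in the libraries labelled AMPKα1−/−. Wild-type libraries had 4.68, 3.28 and 4.08 FPKM with vehicle and were listed at 0 with LPS. The fall was 1.30 log2 units smaller with the label AMPKα1−/− (SE 0.20, adjusted p = 0.026), with vehicle levels that did not overlap and LPS libraries near 0 in both genotypes. The genotypes differed by −1.27 with vehicle and by 0.03 with LPS, so the size of both falls was set by the vehicle level and the pseudocount, and with a pseudocount of 0.1 the difference was 2.10 and not called (adjusted p = 0.28). With the replicate number as a block it was not called (adjusted p = 0.090). Among the next smallest p-values was that of Klk1b22, a kallikrein with close copies, which was listed at 0 in all 6 libraries and had 10.9, 5.71 and 7.91 FPKM in wild-type vehicle libraries (2.44, adjusted p = 0.054). This difference is only the wild-type change of −2.44 with its sign turned, and Klk1b22 too entered the comparison through wild-type values. Chp2 (1.01) and Cytip (−1.79) followed, both at an adjusted p of 0.13. Cytip, a regulator of leukocyte adhesion, fell from 22.5, 34.6 and 21.9 FPKM to 8.98, 7.15 and 9.26 FPKM with the label AMPKα1−/−, and wild-type libraries overlapped, at 8.34, 11.1 and 7.12 FPKM with vehicle and 7.56 and 15.4 FPKM with LPS.

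**Figure D5:**
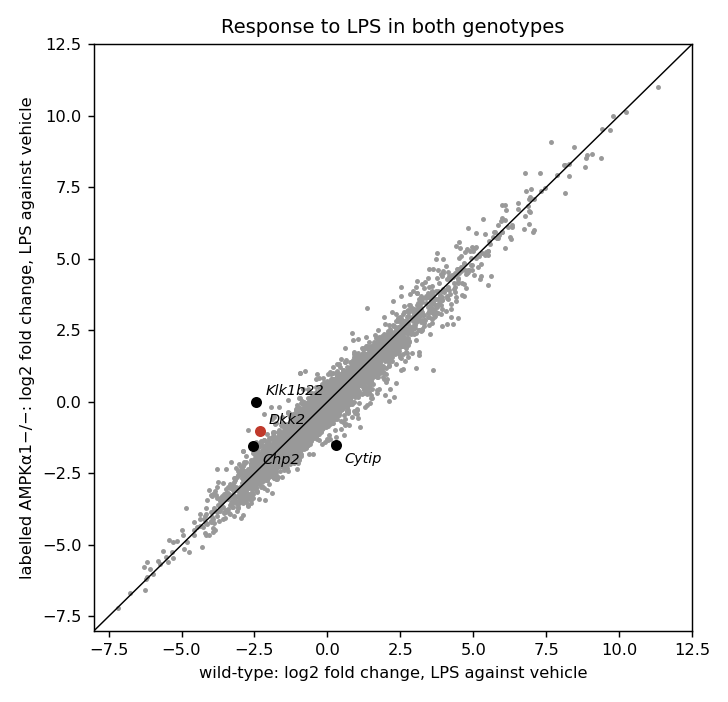
Log2 fold change of FPKM + 1, LPS against vehicle, of 11360 genes in wild-type libraries (horizontal axis) and in libraries labelled AMPKα1−/− (vertical axis), with the line of equality. The red point, Dkk2, is the gene that passed the adjusted threshold for a difference, and the 3 black points are genes with p-values among the next smallest. Points lie along the line with r of 0.970.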

How the data were processed

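The authors deposited FPKM values per Ensembl gene identifier, which are not counts; the submitters' processing notes name TopHat2 2.0.12, Bowtie2 2.2.3, HTSeq 0.6.1, DESeq2, GRCm38 and mm10 without roles. Symbols and positions came from GENCODE (GRCm38), in which 46488 identifiers have a symbol. Groups were taken from the labels. Because many low values (under 10 fragments) were not whole numbers of fragments, no count test was run.

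Genes with a mean of at least 1 FPKM over the 6 libraries were tested on log2(FPKM + 1) with limma 3.58.1 in R 4.3.3 (trended empirical Bayes, 2-sided), fitted on the 12 libraries of 4 groups labelled AMPKα1−/− (vehicle, Dex, LPS, LPS + Dex), with Benjamini-Hochberg adjustment over all genes at 0.05. Fold changes on this scale understate changes of weakly expressed genes. The difference of responses used the 23 libraries of 8 groups of both genotypes, and wild-type LPS replicate 1 was not analysed here. The mean FPKM filter of that test also took in wild-type libraries. It left 11360 genes, some of them under 1 FPKM on average in the 6 libraries. A permutation test of 3 against 3 cannot go below p = 0.1, and none was run. Lists were described by counts and medians only. The p-values measure the spread between these samples, which may be technical.

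Members, the 42 gene lists and tests were chosen with earlier results of these data known. Named genes are Prkaa1, the 12 largest rises and falls whose groups do not overlap, up to 4 called genes with the largest change per list, Tlr4, Ly96, Cd14, Myd88, the 5 smallest interaction p-values and the 3 largest shares of the FPKM sum per group. Predicted genes without a name were left out, and some genes that the rule names are not reported here. Other members were named after their values had been seen, among them Tnf, Nos2, Il1rn, Csf2, Csf3, Nlrp3, Abca1, Apoe, the H2 genes and the uncalled genes.

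Deviations from group means of same-numbered LPS and vehicle libraries correlated at 0.234, 0.129 and 0.309, each over 0.1, so the numbers were taken as pairs (1 unmatched pair, LPS 1 with vehicle 2, had 0.173), although no source used here states the meaning of a number. The p-values are from the fit without the block, unless named. Tables and figures used Python 3.11.15, numpy 2.4.6, pandas 2.3.3, scipy 1.17.1 and matplotlib 3.10.9. The alternatives were a pseudocount of 0.1, other filters, median centring, quantile normalization, other sets of libraries, no moderation, the replicate block, leaving out each library and, chosen after seeing the data, leaving out the libraries numbered 3.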

Additional observations from a re-analysis of the deposited data

Results flagged for a closer look

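Dkk2 passed a test of the difference between genotypes in the change with LPS. It entered that test through its wild-type vehicle values, since its mean over the 6 libraries labelled AMPKα1−/− was under 1 FPKM. The fall with LPS was 2.32 log2 units in wild-type and 1.02 in the libraries labelled AMPKα1−/−, a difference of 1.30 (SE 0.20, adjusted p = 0.026 by limma). Its LPS libraries were at or near 0 in both genotypes, so the difference restates that with vehicle (−1.27) and moves with the pseudocount. It was the only gene to pass among 11360, and the difference ran from 1.20 to 2.10 over the alternatives, 10 of which gave no call: the pseudocount of 0.1, only the groups compared, no moderation, the replicate block, and leaving out vehicle replicate 1 or 2 or LPS replicate 1 labelled AMPKα1−/−, or wild-type vehicle replicate 1 or 3 or LPS replicate 3. It was not tested with a mean of at least 5 FPKM or with the filter over all libraries fitted.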

How the results depend on the processing

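The number of genes called higher ran from 2008 to 3480 over the alternatives and the number called lower from 3542 to 5774, each within 1.5 times its value in the report, and leaving out a library gave 2157 to 2433 and 4443 to 5129. With the replicate block, the pairing by number, 2403 genes were called higher and 4996 lower, and 7210 of the calls were shared; beside Lyz2, Il10 and Dkk2 it changed no call of a named gene under the naming rule. Of the 165 called named genes followed over the alternatives, 11 lost the call under at least 1 of them and 0 turned. Acta2, Blnk, Fth1, Ftl1, H2-Eb1, Itgax, Ltf, Ly96, Rela, Rpl32 and Scd2 each lost it with no filter, with centring or without moderation. Other genes named in the text were not counted here, among them C5ar1, Gpi1 and Pfkm, which lost the call after centring. Of 40 list medians, 20 moved by over 1.5 times or changed sign under at least 1 alternative, 14 of them with centring and 10 on leaving out a single library. The number of genes whose response differed by genotype depended on the setting. It was 0 with a pseudocount of 0.1 (454 at an unadjusted p under 0.05 in limma), with a mean of at least 5 FPKM (325), with the filter over all libraries fitted (482), with only the groups compared (730), without moderation (708) and with the replicate block (658). It was 3 with the DAMPs groups included, 56 with no filter, and 1 with centring or quantile normalization. Leaving out a vehicle or LPS library gave 0 to 11 genes, 11 without wild-type LPS replicate 2, 4 without LPS replicate 2 labelled AMPKα1−/−, 3 without wild-type vehicle replicate 2, 2 without LPS replicate 3 labelled AMPKα1−/−, 1 without vehicle replicate 3 labelled AMPKα1−/− and 0 without any of the other vehicle or LPS libraries, and the Dex and LPS + Dex libraries were not left out of this comparison. Without 1 of the 2 wild-type LPS libraries, 1 library was left in that group, and its spread was taken from the remaining groups. The cause was not tested. Genes that were not called changed sign under some alternatives: H2-D1 was −0.018 after quantile normalization, and Spi1 was 0.23 after centring. Leaving out a single library gave −0.92 to 0.045 for Il15, −0.51 to 1.04 for H2-D1, −0.63 to 1.52 for H2-Ab1, −0.074 to 0.20 for Pkm, −0.15 to 0.023 for Spi1 and −0.22 to 0.25 for Itgam, and leaving out all libraries numbered 3 gave −1.02 for Il15 and 0.33 for Pkm. With only the 250 bases before the start, 2.94% of all promoters held the interferon response type, 4.12% the AP-1 type, 5.98% the GAS type and 5.92% TATAAA. The small number of replicates and a step of 0.0426 to 0.0592 FPKM per fragment on a gene of 1 kb limit what can be seen of weakly expressed genes.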

Other observations

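Outside the H2 region, replicate 3 differed from both other replicates in both treatments for a few further genes. Car9, a carbonic anhydrase, had 0.748, 0.766 and 6.05 FPKM with vehicle and 0.266, 0.554 and 6.53 FPKM with LPS. Ccl27a, a skin chemokine, had 1.15, 0.739 and 9.24 FPKM with vehicle and 0, 0 and 1.19 FPKM with LPS, and Ly6a, the Sca-1 antigen, 11.2, 12.9 and 1.45 FPKM with vehicle and 139, 136 and 40.8 FPKM with LPS. Cx3cr1 was lower in replicate 3, at 22.7, 25.6 and 6.69 FPKM with vehicle and 3.63, 4.42 and 0.424 FPKM with LPS. Hgsnat, a lysosomal acetyltransferase, stood apart in replicate 2, at 200, 25.5 and 233 FPKM with vehicle and 32.4, 11.7 and 33.7 FPKM with LPS. These genes were chosen after their values had been seen, and the cause was not tested.

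In wild-type libraries H2-D1 also differed by replicate number. Its median over treatments was 4733 FPKM in 5 libraries numbered 1, 1042 FPKM in 6 numbered 2 and 3274 FPKM in 6 numbered 3, and every library numbered 2 was below every other. Medians of H2-Ea-ps ran in the reverse order, at 0.0517, 12.47 and 5.41 FPKM for the numbers 1, 2 and 3, but a library numbered 1 reached 151 FPKM.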
